A study of Mus musculus with 19 samples.

Results

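Hox genes encode homeodomain transcription factors that mark position along the body and limb axes, and they lie in 4 clusters in the mouse genome. On the Agilent whole mouse genome array used here, 38 gene names consist of Hox, a cluster letter a to d and a number from 1 to 13, out of 27786 gene names in all. They were measured by 50 of 41174 probes, and the probe with the highest mean signal over the 19 arrays stood for its gene. The Hoxa cluster gave 11 genes between 52105768 and 52209074 on chromosome 6 (mm9), and Hoxb gave 10 genes between 96057368 and 96228510 on chromosome 11. Hoxc gave 8 genes between 102758794 and 102866583 on chromosome 15, and Hoxd gave 9 genes between 74508005 and 74603059 on chromosome 2. Of the 38 genes, 12 had more than 1 probe.

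The arrays came from a study of the class IIa histone deacetylases HDAC4 and HDAC5 in muscle cells and of lipid excess in muscle, and each array held 1 sample in a single colour. C2C12 is a mouse myoblast line. The C2C12 WT group (6 arrays) carried empty plasmids, and the HDAC4&5 group (6 arrays) carried wild-type human HDAC4 in pIRES neo3 and wild-type human HDAC5 in pIRES hyg3. Both groups were kept under selection with hygromycin B and geneticin at 500 µg/ml and were harvested as myoblasts 48 h after seeding. Soleus muscle, a slow calf muscle, was taken from male C57BL6J mice aged 12 weeks after a 5 h fast. The soleus Con group (3 arrays) was heterozygous for the db mutation of the leptin receptor, written db -/+ in the sample labels, and the soleus db group (4 arrays) was homozygous, written db +/+ there. Control mice thus also carried 1 mutant allele. The sources used here do not say that each C2C12 array was a separate culture or a separate clone, so p-values measure the spread between these samples, which may be technical. The methods name fewer biological replicates a group than the 6 C2C12 arrays, so SDs, SEs and p-values over 6 arrays may rest on fewer separate cultures.

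In the embryo, Hox genes are switched on in the order of their place in the cluster, so that genes with low numbers act towards the head and genes with high numbers towards the tail and the ends of the limbs. Retinoic acid helps to open the clusters, Polycomb proteins keep unused Hox genes silent and Trithorax proteins keep active ones on. Adult muscle and connective tissue cells keep part of this pattern, and Hox proteins bind DNA together with the cofactors of the Pbx, Meis and Pknox families. The arrays hold 1 muscle and 1 cell line derived from leg muscle, so body positions were not compared and position as such was not tested.

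Promoter sequences were available from RefSeq (GRCm38.p6) for 22 of the 38 genes, in 24 windows from 250 bases before to 50 bases after the start. The 250 bases before the start are shown for the 3 Hoxd genes that were detected in soleus and on no C2C12 array, and for Hoxa11, which rose in HDAC4&5 cells. Capitals mark a TATA box (TATAAA), a retinoic acid receptor half-site (AGGTCA) or a CCAAT box (CCAAT), searched on both strands and printed as they read on the strand of the gene, so that TTTATA and TGACCT are matches of the opposite strand.
Hoxd4, chr2:74721728-74721977, plus strand: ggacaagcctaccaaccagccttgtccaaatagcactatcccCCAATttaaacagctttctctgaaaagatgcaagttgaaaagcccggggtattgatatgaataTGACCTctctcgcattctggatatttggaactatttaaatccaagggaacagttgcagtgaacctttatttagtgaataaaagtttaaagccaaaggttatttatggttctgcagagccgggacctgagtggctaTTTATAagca
Hoxd8, chr2:74704365-74704614, plus strand: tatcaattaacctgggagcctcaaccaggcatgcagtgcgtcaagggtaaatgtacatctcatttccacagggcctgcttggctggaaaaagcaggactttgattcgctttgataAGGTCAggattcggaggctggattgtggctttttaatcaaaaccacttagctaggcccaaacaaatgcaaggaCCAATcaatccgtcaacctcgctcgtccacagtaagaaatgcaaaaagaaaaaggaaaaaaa
Hoxd9, chr2:74697513-74697762, plus strand: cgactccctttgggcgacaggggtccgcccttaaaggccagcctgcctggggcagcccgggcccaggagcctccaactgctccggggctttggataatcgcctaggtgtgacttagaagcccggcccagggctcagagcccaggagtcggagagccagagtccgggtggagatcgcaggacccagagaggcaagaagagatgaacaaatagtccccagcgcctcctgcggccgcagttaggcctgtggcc
Hoxa11, chr6:52245811-52246060, minus strand: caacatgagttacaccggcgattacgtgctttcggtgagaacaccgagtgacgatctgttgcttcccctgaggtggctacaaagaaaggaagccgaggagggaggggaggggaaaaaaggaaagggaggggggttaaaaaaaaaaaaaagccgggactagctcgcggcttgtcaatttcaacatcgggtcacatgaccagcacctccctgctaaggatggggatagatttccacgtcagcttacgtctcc
Hoxd4 held all of these motifs, Hoxd8 held the half-site and the CCAAT box, and no match to these letters was found in the printed stretch of Hoxd9 or Hoxa11. Over the 300-base windows, the half-site was present in 7 of 24 Hox windows (29.2%) against 16.3% of all 32851 windows, and the CCAAT box in 15 (62.5%) against 37.4%. The TATA box was present in 4 Hox windows (16.7%, all windows 13.6%) and the joint Hox and Pbx site TGATTNAT in 2 (8.33%, all windows 3.22%). The MEF2 consensus, the site of the transcription factors that class IIa HDACs repress, was found in 0 Hox windows and in 0.557% of all windows. Hox windows held a median of 14 CpG dinucleotides (range 4 to 45), against 7 over all windows. A match is a description of the letters and not evidence of binding.

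Because the result for Hoxb6 depended on the probe, the first 30 bases of the 60-base probes for Hoxb6 and its neighbours are given, in lower case throughout, with their place on mm9.
Hoxb6, first probe, chr11:96162563-96162622, plus strand: tcgagtctcatttcgtccatgtcccccgtg
Hoxb6, second probe, chr11:96160281-96160340, plus strand: ggtgctatttgacaattcctgcctctgcca
Hoxb5, chr11:96167130-96167189, plus strand: taggccccacaaggcctagtctggaagcgt
Hoxb13, chr11:96057368-96057427, plus strand: agttgcgggagttggagcgggagtatgcag
Hoxb2, first probe, chr11:96211860-96211919, minus strand: gtaatgtattctatggtgaggcacctatga
Hoxb2, second probe, chr11:96215122-96215181, plus strand: tggtaaaactccttccaacgaaatctcagg
The Hoxb cluster is transcribed from the plus strand, and the first Hoxb2 probe was the only 1 of the 50 Hox probes placed on the strand opposite to its cluster. An antisense transcript and the Hoxb2 transcript could therefore not be told apart by gene name alone.

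Signals are given as log2 of the processed intensity minus the log2 of the array's 75th percentile, so that 0 is the 75th percentile of that array. This percentile was 564 to 1691 on WT arrays, 494 to 873 on HDAC4&5 arrays, 153 to 555 on Con arrays and 180 to 686 on db arrays. A probe was called well above background by the scanner software, spot by spot. The lowest such signals averaged -5.71 in WT, -5.37 in HDAC4&5, -3.53 in Con and -4.18 in db, so that weak signals were seen further down in C2C12 cells than in muscle. No Hox spot was saturated. Signals of different probes are not set against each other.

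The samples were first checked against their labels. In WT cells 6 of 8 myoblast markers were well above background throughout, among them Myod1, Myog and Des, while Myf5 and Pax7 were so on no array. In HDAC4&5 cells 4 of 8 were, and Myod1, the transcription factor that defines the myoblast, was well above background on no array. Each of 5 endothelial markers was well above background on no C2C12 array by the probe that stood for it, and another Pecam1 probe was so on 1 of 6 WT arrays. In Con soleus all 8 muscle fibre markers and all 5 endothelial markers were well above background throughout. The mouse Hdac4 probe lay between 0.17 and 0.36 in WT and between 0.15 and 0.30 in HDAC4&5 cells, so the groups overlapped. The mouse Hdac5 probe lay between 1.88 and 2.73 in WT and between 2.77 and 4.40 in HDAC4&5 cells, without overlap. The constructs were human, and whether mouse probes read them was not tested.

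A Hox gene was counted as detected in a group where all its kept arrays were well above background. The number was 16 in WT, 14 in HDAC4&5, 16 in Con and 14 in db, or 42.1%, 36.8%, 42.1% and 36.8% of the 38, against 49.4%, 45.9%, 44.5% and 43.9% of all genes. The clusters were represented unevenly. In WT cells 9 of 11 Hoxa genes, 2 of 10 Hoxb, 5 of 8 Hoxc and 0 of 9 Hoxd genes were detected in this way. In Con soleus the numbers were 5 Hoxa, 4 Hoxb, 4 Hoxc and 3 Hoxd genes. Single arrays held 16 to 19 Hox genes well above background in WT, 17 to 20 in HDAC4&5, 18 to 21 in Con and 17 to 20 in db.

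Hoxa7, Hoxa9, Hoxa10, Hoxa11, Hoxb6, Hoxc6, Hoxc9 and Hoxc10 were detected on every array of all 4 groups. Their numbers run from 6 to 11. Hoxa6, Hoxb7, Hoxb8, Hoxb9, Hoxc8, Hoxd8, Hoxd9, Hoxd10 and Hoxd11, in the same range, were not detected on every array of all 4 groups. The share of all genes with this pattern is not given here, and position was not tested. A further 4 genes, Hoxa4, Hoxa5, Hoxb5 and Hoxc4, were detected on every array of at least 1 C2C12 and 1 soleus group. Hoxa3, Hoxa6, Hoxb3, Hoxb4 and Hoxc13 met this mark in a C2C12 group and in no soleus group. Hoxb2, Hoxb7, Hoxd4, Hoxd8 and Hoxd9 met it in a soleus group and were well above background on no C2C12 array, a pattern shared by 2.67% of all genes. The reverse pattern, every array of a C2C12 group and no soleus array, was shown by Hoxb3, Hoxb4 and Hoxc13, among others, and by 3.33% of all genes. The C2C12 signals of Hoxb3, Hoxb4 and Hoxc13 averaged -5.22 to -4.43 and lay below the lowest signals that could be called in muscle.

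The other 15 genes were detected in no group in this sense. Hoxb1, Hoxc5, Hoxc8, Hoxc12, Hoxd1 and Hoxd3 were above it on no array at all. Hoxa2, Hoxa13, Hoxb8, Hoxb9, Hoxb13, Hoxd10, Hoxd11, Hoxd12 and Hoxd13 were above it on some arrays. Among the last, Hoxd10 was well above background on 2 of 3 Con and 3 of 4 db arrays, and on 0 C2C12 arrays. Hoxa13, a gene of the distal limb, was so on 1 of 3 Con and 3 of 4 db arrays and on 1 HDAC4&5 array.

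The first comparison asked which Hox genes differed between C2C12 cells with and without added HDAC4 and HDAC5. Genes of the Hoxb cluster showed the widest gaps. Hoxb6 rose 41.8-fold by its first probe, Hoxb5 rose from background by at least 4.95-fold, and Hoxa11 rose 2.12-fold, while Hoxc9 fell 1.65-fold. Of 18 Hox genes tested, 5 rose (Hoxa5, Hoxa11, Hoxb5, Hoxb6 and Hoxc6) and 4 fell (among them Hoxa4, Hoxc9 and Hoxc13, of which Hoxa4 and Hoxc13 were higher with normexp), by limma at a Benjamini-Hochberg adjusted p of 0.05 over 14125 genes. These 9 are 50% of those tested, against 69.3% of all genes (36.5% higher and 32.8% lower). The median difference was -0.03 over the Hox genes and 0.05 over all genes, and with normexp background correction the Hox median was 0.33. In the values the authors deposited as a matrix the split was 3 higher and 5 lower, and among all genes 38.3% of the calls were higher, against 52.7% on the scale used here.

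Hoxb6 is a gene of the middle of its cluster, known from the trunk. Its first probe gave a lowest, median and highest signal of -5.32, -5.00 and -4.39 in WT cells. The same values were 0.15, 0.45 and 0.68 in HDAC4&5 cells. Every HDAC4&5 array was thus above every WT array by a wide margin. The means were -4.94 ± 0.35 and 0.44 ± 0.23 (SD, n = 6 each), and the difference was 5.38 ± 0.16 (log2, SE, limma adjusted p = 3.72e-12). Within slides 1, 2 and 3, each of which held 2 arrays of either group, it was 5.93, 5.23 and 5.00. The second Hoxb6 probe, at the lower coordinate shown above, gave -3.23 in WT and -3.24 in HDAC4&5 cells on average, with all 12 arrays well above background. The probes therefore disagreed, and the mean of the pair differed by 2.69. With normexp the first probe differed by 3.71.

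Hoxb5 lies next to Hoxb6. Its signal in WT cells was -7.70, -7.13 and -6.57 (lowest, median and highest), and 0 of 6 arrays were well above background. In HDAC4&5 cells it was -3.54, -3.40 and -3.29, and all 6 arrays were well above background. Hoxb5 passed the filter through HDAC4&5 cells alone, where it was high, so it had to differ, and its limma adjusted p of 1.81e-10 adds no support. Where a gene was well above background on no array of a group, as here, the fold is a lower bound. It sets the mean of the brighter group against the mean of the lowest signals well above background on the arrays of the dimmer group (or the probe's own signal where that was higher), and for Hoxb5 it was at least 4.95-fold. Within the slides the measured differences were 4.11, 3.83 and 3.30, and with normexp the difference was 1.37, smaller than the bound.

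Hoxb13, a gene of the tail end and of the prostate that lies apart from the rest of the cluster, was not tested because it missed the filter by 1 array. It was well above background on 0 of 6 WT arrays and on 5 of 6 HDAC4&5 arrays. Its lowest, median and highest signals were -8.45, -8.02 and -7.52 in WT and -5.33, -4.24 and -2.99 in HDAC4&5 cells. The groups did not overlap, and the bound was at least 2.85-fold. Between Hoxb13 and Hoxb6 on the chromosome, Hoxb7 was above background on no C2C12 array, and Hoxb9 was so on 1 WT array. Hoxb8 was above background on no C2C12 array by its first probe and on 1 WT array by its second. On the far side of Hoxb5, Hoxb3 averaged -5.22 in WT and -4.43 in HDAC4&5 cells (limma adjusted p = 0.0707), and Hoxb4 averaged -4.90 and -4.94. With the slide as a block Hoxb3 passed as higher. The second Hoxb3 probe was well above background on 0 of 6 WT and 5 of 6 HDAC4&5 arrays, with a measured difference of 3.24. The Hoxb3 result thus depended on the probe, and the mean of its probes differed by 2.01. Hoxb1 and Hoxb2 were above background on no C2C12 array.

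**Figure D1:**
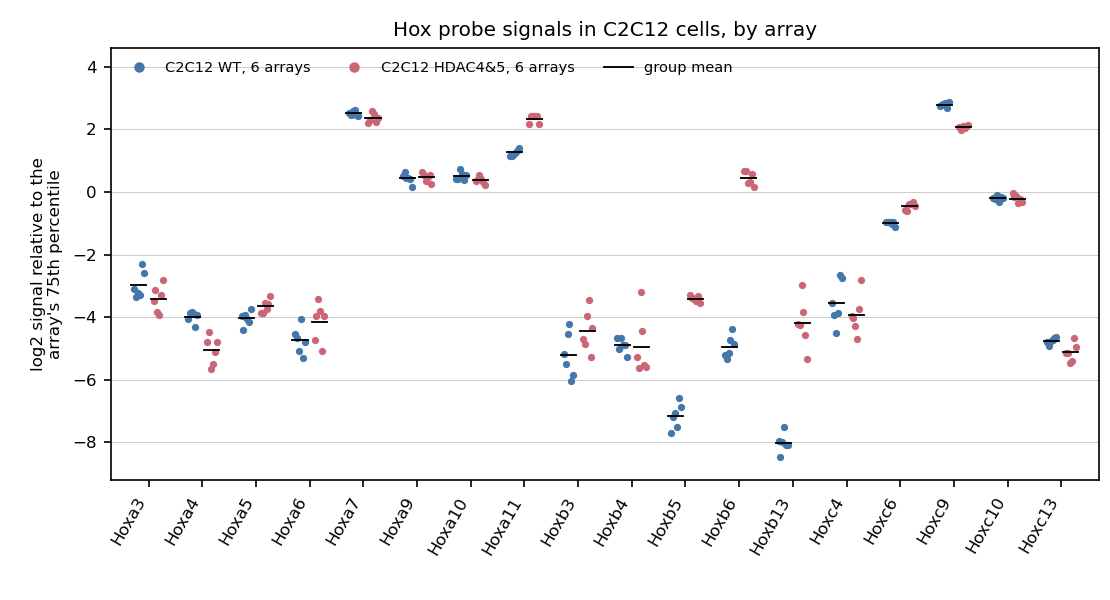
Signal of the tested Hox genes reported here by name and of Hoxb13 on each C2C12 array (log2 relative to the array's 75th percentile, points by array, black lines at group means, 6 arrays a group). The Hoxb5, Hoxb6 and Hoxb13 points of HDAC4&5 cells lie well above those of WT cells, and for most Hoxa and Hoxc genes the groups lie close together.

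Hoxa11, which patterns the forearm and lower leg, was 1.15, 1.25 and 1.41 in WT and 2.17, 2.43 and 2.44 in HDAC4&5 cells (lowest, median and highest). All HDAC4&5 arrays were above all WT arrays, by 1.08 ± 0.07 on average (log2, SE, limma adjusted p = 1.46e-08). Its cluster neighbours with close numbers did not pass the test without a block. Hoxa7 and Hoxa10 passed as lower with the slide as a block. Hoxa9 averaged 0.44 in WT and 0.47 in HDAC4&5 cells, and Hoxa10 averaged 0.51 and 0.39 (adjusted p = 0.741 and 0.141, limma). Hoxa7 averaged 2.51 and 2.36 (limma adjusted p = 0.0664).

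Hoxc6, a gene of the trunk, was -1.11, -0.95 and -0.94 in WT and -0.62, -0.41 and -0.32 in HDAC4&5 cells. The groups did not overlap, and the difference was 0.53 ± 0.06 (log2, SE, limma adjusted p = 3.44e-06). Hoxc9, also of the trunk, was 2.68, 2.79 and 2.87 in WT and 1.98, 2.08 and 2.13 in HDAC4&5 cells. Here the groups were apart in the other direction, and Hoxc9 fell by 0.72 ± 0.05 (limma adjusted p = 1.17e-08). The cluster thus held a member that rose and a member that fell. Hoxc10 lay between -0.32 and -0.11 in WT and between -0.36 and -0.04 in HDAC4&5 cells, and Hoxc4 averaged -3.55 and -3.92 (limma adjusted p = 0.929 and 0.365).

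Hoxa4 was -4.30, -3.92 and -3.84 in WT and -5.67, -4.95 and -4.47 in HDAC4&5 cells, where it was well above background on 4 of 6 arrays. The groups did not overlap, but the fall of 1.07 ± 0.18 (log2, limma adjusted p = 1.77e-04) became a difference of 0.17 with normexp background correction. Hoxc13 fell by 0.37 ± 0.12 with overlapping groups (limma adjusted p = 0.0119, 3 of 6 HDAC4&5 arrays above background) and was 0.41 higher with normexp. Hoxa5 rose by 0.38 ± 0.12, also with overlap (limma adjusted p = 0.0113).

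No overlap between the groups was seen for 7 of the 18 tested genes (among them Hoxa4, Hoxa11, Hoxb5, Hoxb6, Hoxc6 and Hoxc9), against 54.7% of all genes. A difference of 2-fold or more was measured for 4 (Hoxa4, Hoxa11, Hoxb5 and Hoxb6), against 22.5% of all genes. The 9 genes that did not pass ranged from -0.44 for Hoxa3 to 0.79 for Hoxb3. With the slide as a block, 6 Hox genes were higher and 7 lower, against 76.9% of all genes called, since Hoxa3, Hoxa7 and Hoxa10 then passed as lower and Hoxb3 as higher. With the replicate number as a replicate block the numbers were also 6 and 7, against 76% of all genes. At an unadjusted p of 0.05 in limma 10 Hox genes passed, against 71.2% of all genes.

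**Figure D2:**
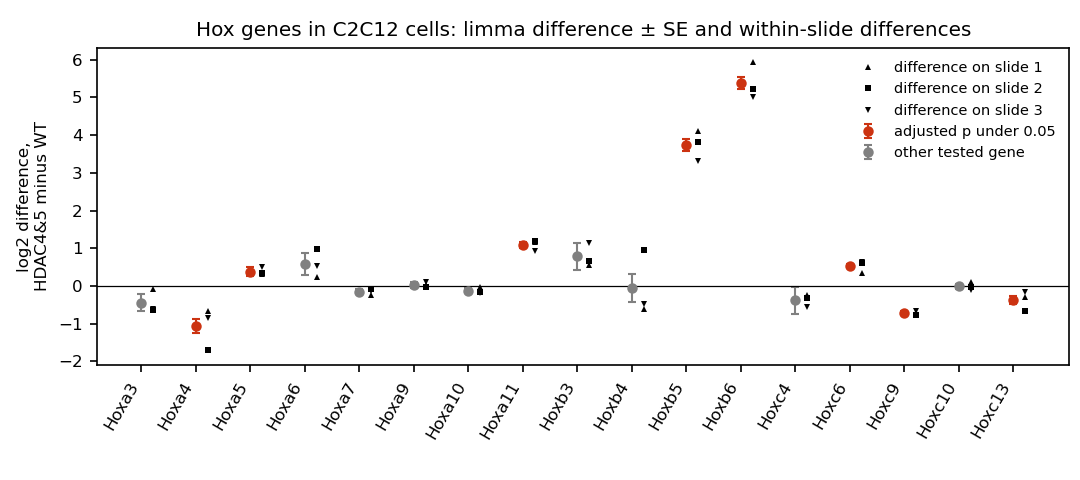
Difference between HDAC4&5 and WT cells for the tested Hox genes reported here by name (log2, coloured points with SE from limma, red where the adjusted p was under 0.05) and the difference within each of 3 slides (black symbols). Hoxb6 at 5.38 stands apart, with 5.00 to 5.93 within the slides. Hoxb5, not well above background in WT cells, is drawn at the difference of its measured signals and has a bound of at least 4.95-fold.

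Genes that work with or around the Hox genes were read from hand-written lists. The shares called were 88.9% of the cofactors, 83.3% of the Polycomb and Trithorax genes, 66.7% of the retinoic acid genes, 76.9% of the limb and axial factors and 56.1% of the cluster neighbours, against the 69.3% of all genes (36.5% higher, 32.8% lower, median 0.05) given above. Of the 9 cofactors, 3 rose and 5 fell (median -0.18), and 3 fell with normexp. Pbx4 rose by 0.80 and Meis1 by 0.77 on the log2 scale, whereas Meis2 fell by 1.13, Pknox1 by 0.28, Pbx3 by 0.24 and Pbx2 by 0.18. Pknox2 was well above background on no HDAC4&5 array by the probe that stood for it and on all 6 by another probe, so no fold is given. Of the 24 Polycomb and Trithorax genes measured, 14 rose and 6 fell (median 0.25). Among the Polycomb members, the chromodomain genes Cbx6 and Cbx8 rose by 0.84 and 0.69, Eed by 0.98, Rnf2 by 0.94, Pcgf2 by 0.82 and Phc3 by 0.62, while Cbx2 fell by 0.67.

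The retinoic acid list moved in both directions, with 4 of 12 tested genes higher and 4 lower (median 0.05). Cyp26a1, which breaks retinoic acid down, rose by 2.42 (1.42 with normexp), and Dhrs3, which turns retinaldehyde back into retinol, rose by 2.41. Aldh1a3, which makes retinoic acid, was at least 7.30-fold lower, and Crabp2, which carries it to the nucleus, at least 6.56-fold lower, and both were above background on no HDAC4&5 array (differences of -1.07 and -0.68 with normexp, smaller than these bounds). The receptor Rarb fell by 1.57 (0.15 with normexp) and Cyp26b1 by 0.70 (0.22 higher with normexp), each above background on 4 of 6 HDAC4&5 arrays, whereas Rxra rose by 0.70 and Rarg by 0.40. Aldh1a2, Rxrg and Crabp1 were above background on no C2C12 array.

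Among limb and axial position factors, 3 of 13 tested genes rose and 7 fell (median -0.25). Pax9 was above background on 1 of 6 WT and all 6 HDAC4&5 arrays and differed by 3.99, or by 0.70 in the authors' matrix. En1, on 3 of 6 WT arrays, rose by 1.15 and Tbx18 by 0.66. Eya4 fell by 3.90, Prrx2 by 2.85 and Prrx1 by 2.64. Pitx1, Meox1, Meox2, Pax1, Hand2, Irx3 and Msx2 were above background on no C2C12 array. With quantile normalization the split of this list was 5 higher and 4 lower. The ParaHox, Cdx and Evx list, the relatives of the Hox genes, had 0 of 3 tested genes called in limma, and 0 at an unadjusted p of 0.05. Of the other genes with a probe within 500 kb of a Hox cluster, 14 of 41 tested rose and 9 fell (median 0.14). Around Hoxb 5 of 13 (38.5%) rose, close to the 36.5% of all genes, and 0 fell, with Copz2, a coat protein gene, up by 1.23. Around Hoxc 8 of 22 rose and 8 fell, with Amhr2 up by 2.30 (1.36 with normexp) and Pde1b down, at -4.08 (-2.22 with normexp).

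Cell type markers also differed between these groups. The summed signal of 6 myoblast markers, with each array's 75th percentile as 1, was 70.1 to 106 in WT (median 94.4, brightest probe Des) and 4.06 to 5.81 in HDAC4&5 cells (median 4.69, brightest probe Met), and 5 of 6 tested myoblast markers fell. Des was saturated on 2 WT arrays, so those sums are lower limits. Markers with a dropped spot on any array, here Cdh15 and Chrna1 (and Col1a2 and Dcn among the fibroblast markers), were left out of the sums. Of 7 tested muscle fibre markers 6 fell, among them Tnnt1 (-8.57, or -6.26 with normexp) and Acta1 (-7.63, or -6.27), and Myh7 rose by 1.44. The summed signal of 5 fibroblast markers was 34.7 to 42.5 in WT and 79.6 to 96 in HDAC4&5 cells (brightest probe Col3a1 in both), with 3 of 5 tested markers higher and 2 lower. The 2 lower ones were the left-out Col1a2, which fell by 2.43 and was saturated on 3 WT arrays, and Dcn, which fell by 1.32, so the higher sum holds for the other markers only. Of 2 tested epithelial markers Krt8 rose by 0.54, and Krt19 was lower and above background on 1 of 6 HDAC4&5 arrays. Of 2 tested macrophage markers Lyz2, above background on no WT array, was at least 4.22-fold higher (1.31 on the log2 scale with normexp) and Cd68 fell by 0.42. Among the Schwann cell markers Pmp22 rose by 1.34. The 1 tested adipocyte marker, Fabp4, was higher and above background on 1 of 6 WT arrays, and the 1 tested erythrocyte marker, Hba-a1, differed by -2.39 (-1.38 with normexp). The part of these changes in the Hox differences was not tested.

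The second comparison asked which Hox genes differed between soleus muscle of db and Con mice. None of the 17 tested Hox genes passed the adjusted p of 0.05 in limma, against 1 of 13033 genes (0.00767%). At an unadjusted p of 0.05, 1 Hox gene passed, against 6.29% of all genes. A difference of 2-fold or more was measured for 3 Hox genes, against 8.88%, and the groups did not overlap for 1, against 10.3%. The median difference was -0.25 over the Hox genes and -0.02 over all genes. Whole muscle holds several cell types, and fewer cells of a type and less RNA per cell cannot be told apart.

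Hoxd4 was the gene whose groups did not overlap. It lies towards the head-ward end of its cluster. Its signals were -1.55, 0.67 and -1.57 on the 3 Con arrays, all well above background. On the 4 db arrays they were -4.03, -3.64, -3.07 and -2.94, of which 2 were well above background. All db arrays were below all Con arrays, by 2.61 ± 0.60 on average (log2, SE), with an unadjusted p of 0.00241 and an adjusted p of 0.412 in limma. Within slide 4 the difference was -3.40 (2 arrays of each group) and within slide 5 it was -1.44 (1 Con and 2 db arrays). Without Con array 2, the highest, the difference was -1.86, and it was -1.43 with normexp. With the slide as a block the limma adjusted p was 0.117, and over 20 settings it was never under 0.05.

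Hoxb2 and Hoxb5 were the other genes with a difference of 2-fold or more. Hoxb2, by its probe on the opposite strand, was -2.16, -1.39 and -0.70 in Con and -3.76, -3.29, -1.71 and -1.63 in db muscle, where 3 of 4 arrays were well above background. The groups overlapped (difference -1.18, limma adjusted p = 0.879). The second Hoxb2 probe differed by -0.47. Hoxb5 was -2.65, -2.35 and -3.41 in Con and -2.75, -3.68, -4.63 and -4.72 in db muscle, with 1 of 4 db arrays well above background. The groups overlapped here too (difference -1.14, limma adjusted p = 0.834). Hoxc6 was -0.23, -0.09 and -1.21 in Con and -1.28, -0.95, -1.54 and -1.58 in db muscle (difference -0.82, limma adjusted p = 0.791).

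For the other tested genes, Hoxa4, Hoxa5, Hoxa7, Hoxa9, Hoxa10, Hoxa11, Hoxb6, Hoxb7, Hoxc4, Hoxc9, Hoxc10, Hoxd8 and Hoxd9, the differences ranged from -0.61 for Hoxb6 to 0.50 for Hoxd8, with overlapping groups. Their standard errors ranged from 0.30 for Hoxa10 to 0.90 for Hoxc9, so differences of this size could not be resolved. Part of the spread followed the slide. Hoxa11 was 0.30 and 0.68 on the Con arrays of slide 4 and 2.20 on that of slide 5, and in db muscle it was -0.36 and 0.23 on slide 4 and 1.72 and 1.64 on slide 5. Hoxc9 was 2.37 and 3.44 in Con and 0.50 and 3.33 in db muscle on slide 4, and 4.24 in Con and 4.23 and 3.85 in db muscle on slide 5. For both genes every slide 5 array was above every slide 4 array. The Hoxc4 spots of all 3 slide 5 arrays were marked as outliers by the scanner software and dropped, which left 2 Con and 2 db arrays, and the Hoxa4 spot of db array 3 was dropped likewise.

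**Figure D3:**
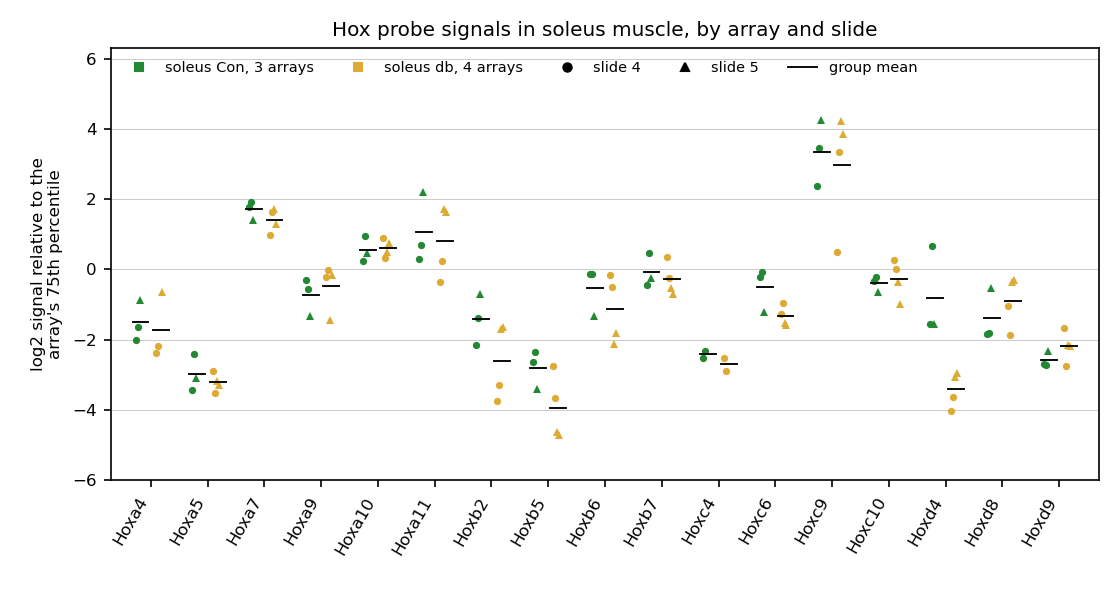
Signal of the 17 tested Hox genes on each soleus array (log2 relative to the array's 75th percentile, circles for slide 4 and triangles for slide 5, black lines at group means, 3 Con and 4 db arrays). Hoxd4 is the gene whose Con and db points do not overlap, and the triangles of Hoxa11 and Hoxc9 lie above the circles.

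With the slide as a block 0 Hox genes were called, against 0.307% of all genes, and with the replicate block 0 Hox genes, against 0.00767%. Of the lists, 0 of 6 tested cofactors, 0 of 23 Polycomb and Trithorax genes, 0 of 11 retinoic acid genes and 0 of 12 limb and axial factors were called by limma. At an unadjusted p of 0.05 in limma these numbers were 0, 1, 2 and 0, against 6.29% of all genes. The differences ranged from -0.95 to 0.71 over the retinoic acid genes and from -1.24 to 1.07 over the Polycomb and Trithorax genes. Cell type markers gave 0 calls as well, and at an unadjusted p of 0.05 the endothelial list held 3 of 5. The fibroblast list then held 1 of 7, the macrophage and adipocyte lists 1 of 5 each, and the other marker lists 0. The summed signal of 4 endothelial markers was 32.0, 34.2 and 39.3 on the Con arrays and 23.4, 13.6, 23.2 and 18.9 on the db arrays, without overlap (brightest probe Emcn in both groups). That of 5 fibroblast markers was 317, 379 and 252 on the Con arrays and 183, 103, 152 and 222 on the db arrays, also without overlap (brightest probe Col3a1 in both groups, with saturated spots on 1 Con and 2 db arrays). The summed signal of 4 Schwann cell markers was 1.68 to 4.72 in Con and 1.24 to 1.55 on 3 db arrays but 22.5 on db array 4. The Schwann cell sums thus overlapped between the groups. So did the myoblast, muscle fibre, macrophage, adipocyte, epithelial and erythrocyte signals. The part of these cell types in the Hox values was not tested.

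The third comparison set Con soleus against WT C2C12 cells. It shares the Con arrays with the soleus comparison and the WT arrays with the C2C12 comparison. The materials lay on different slides and their RNA was extracted in different ways, so that slide, extraction and material cannot be told apart. Of 22 Hox genes tested, 10 were higher in soleus and 4 were lower (1 of them, Hoxc13, was higher with normexp), by limma at an adjusted p of 0.05, or 63.6% of those tested, against 75.5% of 15069 genes (37.2% higher and 38.3% lower). Of the 10 higher genes 6 were well above background on no WT array and passed the filter through soleus alone. Hoxa5 and Hoxa6 are also counted among the 10 but are given no direction below. With the filter applied to both groups, 3 of 10 Hox genes tested were higher and 2 lower. The median difference was 0.81 over the Hox genes and -0.03 over all genes. The Hox median was 1.23 with normexp and 1.19 with the percentile taken over probes detected on all arrays. It was 0.42 with quantile normalization and 0.23 in the authors' matrix. The higher share of the Hox calls was 71.4%, 82.4% (14 and 3 genes) with normexp or with the percentile taken over probes detected on all arrays, 66.7% with quantile normalization and 75% in the authors' matrix. These settings moved the median of all genes by 0.27, 0.38, -0.27 and -0.28, and the shares of all calls that were higher were 49.3% and then 56.3%, 59.3%, 43.2% and 40.9%.

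The 5 genes above background in soleus and on no C2C12 array gave lower bounds. Hoxb7 was -0.44, 0.46 and -0.26 in Con muscle and lay between -7.94 and -7.46 in WT cells, not well above background. It was at least 49.5-fold higher in muscle (limma adjusted p = 5.66e-10). Hoxd4, with the Con values given above and WT signals between -8.40 and -7.51, was at least 29.8-fold higher (adjusted p = 1.85e-07, limma), or at least 17.8-fold without Con array 2. Hoxd8 was -1.84, -1.81 and -0.52 in Con muscle, at least 20.0-fold higher, and Hoxb2 was at least 19.6-fold higher by its probe on the opposite strand (limma adjusted p = 2.32e-08 and 1.76e-08) and at least 10.6-fold higher by its second probe, on the strand of the gene. Hoxd9 was -2.69, -2.73 and -2.32, at least 8.75-fold higher (limma adjusted p = 3.30e-09), or at least 3.58-fold by its second probe. With normexp, which adds an offset to every signal, the differences of Hoxb7, Hoxd4, Hoxd8, Hoxb2 and Hoxd9 were 3.76, 3.33, 3.02, 2.78 and 2.31 (log2), all smaller than these bounds. These 5 genes passed the filter through soleus alone, where they were high, so they had to differ, and their p-values add no support.

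Hoxb5 was at least 7.51-fold and Hoxb6 21.2-fold higher in Con muscle than in WT cells (limma adjusted p = 3.09e-07 and 3.46e-07), and with normexp the differences were 2.01 for Hoxb5, smaller than its bound, and 2.84 for Hoxb6 (log2). Hoxb5, too, passed the filter through soleus alone, so its p-value adds no support. Hoxb6 was -0.13, -0.15 and -1.33 in Con muscle, and all of these signals were above the WT range given above. The second Hoxb6 probe was 1.94 higher on the log2 scale. The HDAC4&5 cells, described above, had Hoxb6 signals of 0.15 to 0.68 and Hoxb5 signals of -3.54 to -3.29, beside Hoxb5 values of -2.65, -2.35 and -3.41 in Con muscle. Hoxa4 was 5.55-fold higher in Con muscle (-2.01, -1.64 and -0.88 against -4.30 to -3.84 in WT cells), whereas its second probe, above background on no Con array, averaged -5.39 in WT cells and -4.06 in Con muscle. Hoxa5 and Hoxa6 differed by 1.05 and 1.31 (log2, or 0.28 and 0.44 with quantile normalization), with 2 of 3 and 1 of 3 Con arrays well above background, and the Hoxa6 groups overlapped. Their WT means of -4.04 and -4.74 lay below the lowest signals called in Con muscle, which averaged -3.53. Hoxb1, Hoxc8, Hoxc12 and Hoxd1, above background on no array, differed by 2.22, 2.26, 2.11 and 1.99 without the filter. These gaps were larger than those of Hoxa5 and Hoxa6, so no direction is given for the 2 genes.

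Among the Hox genes lower in muscle were Hoxa7 and Hoxa9. Hoxa9 was -0.30, -0.58 and -1.33 in Con muscle, all below the WT range of 0.17 to 0.64, and differed by -1.17 ± 0.22 (log2, SE, limma adjusted p = 6.12e-04). Hoxa7 was 1.78, 1.93 and 1.40 in Con muscle, all below the WT range of 2.42 to 2.61 (limma adjusted p = 4.81e-04). Hoxc13, counted among the lower calls, was above background on no Con array and passed the filter through WT cells alone, at a WT mean below the signals that could be called in Con muscle, so no direction is given, and it was 0.77 higher with normexp. Hoxa3, Hoxa10, Hoxa11, Hoxb4, Hoxc4, Hoxc6, Hoxc9 and Hoxc10 did not pass, with differences from -0.40 for Hoxa3 to 1.13 for Hoxc4. Hoxa10 differed by 0.03 ± 0.17. Hoxd10, not tested, was on 2 of 3 Con arrays and was at least 6.10-fold higher in muscle.

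**Figure D4:**
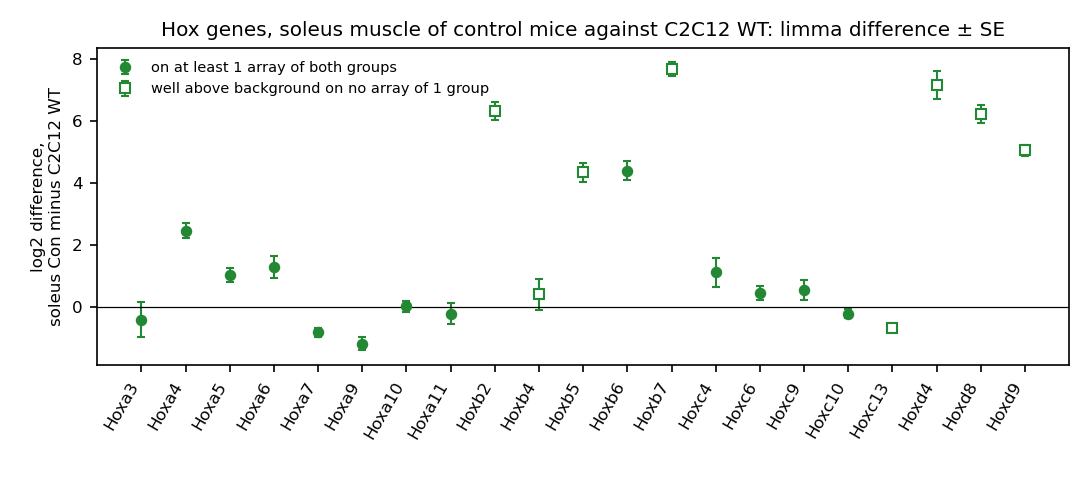
Difference between Con soleus and WT C2C12 cells for the tested Hox genes reported here by name (log2, points with SE from limma, open squares where a gene was well above background on no array of 1 of the groups). The Hoxb2, Hoxb5, Hoxb7, Hoxd4, Hoxd8 and Hoxd9 squares lie between 4.35 and 7.68, and since squares are differences of measured signals, the bounds in the text are the folds to read.

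No overlap between Con and WT arrays was seen for 14 of the 22 Hox genes, against 70.9% of all genes, and a difference of 2-fold or more for 13, against 61.3%. At an unadjusted p of 0.05 in limma 15 passed, against 77% of all genes. The shares called were 100% of the cofactors, 66.7% of the Polycomb and Trithorax genes, 86.7% each of the retinoic acid genes and the limb and axial factors and 77.8% of the cluster neighbours, against 75.5% of all genes. Of the cofactors, 2 of 9 were higher in muscle and 7 lower (median -1.38, or -0.71 with genes above background in 1 group alone set at their bound). Pknox2 was higher by 2.50, and Meis2, above background on 1 of 3 Con arrays, was lower, with a difference of -6.08 (-4.28 with normexp), as were Meis3 (-2.40, or -0.85 with normexp), Pknox1 (-1.38) and Pbx2 (-0.77). Meis1 was above background on no Con array and was at least 1.54-fold lower, but 0.22 higher with normexp. Pbx4 was above background on no Con array by the probe that stood for it and on 1 of 3 by another, so no fold is given, and it was 0.47 higher with normexp. Of the Polycomb and Trithorax genes, 4 of 24 were higher and 12 lower (median -0.41). Jarid2 was higher by 3.63 and Cbx7 by 2.25, whereas Cbx2, Men1, Ezh2, Phc2 and Suz12 differed by -3.00, -2.93, -2.90, -2.06 and -1.52 (Cbx2 by -1.70 and Men1 by -2.05 with normexp). Pcgf2, above background on no Con array, was at least 1.31-fold lower, but 0.25 higher with normexp.

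Of 15 tested retinoic acid genes, 9 were higher in muscle and 4 lower (median 4.12). Rxrg was at least 1160-fold and Aldh1a2 at least 400-fold higher, Aldh1a1, above background on 2 of 6 WT arrays, differed by 11.07 (log2, 8.30 with normexp), and Dhrs3, Cyp26b1, Rxra and Rarb by 4.74, 4.67, 4.30 and 4.12 (Cyp26b1 by 3.67 and Rarb by 3.24 with normexp). With normexp Rxrg and Aldh1a2 differed by 7.96 and 6.47, smaller than their bounds. Of 15 tested limb and axial factors, 8 were higher and 5 lower (median 0.65). Pitx1, which gives the hindlimb its identity, was at least 54.3-fold higher in Con muscle than in WT cells, in which it was above background on no array. Tbx4, also of the hindlimb, was above background on 2 of 3 Con and 2 of 6 WT arrays, and Tbx5, of the forelimb, on 0 of 3 and 1 of 6. Meox2 was at least 442-fold and Meox1 at least 59.7-fold higher, and Tbx15 was higher by 3.49 (log2). With normexp Pitx1, Meox2 and Meox1 differed by 3.93, 6.50 and 3.99, smaller than their bounds. Lbx1, above background on 1 of 6 WT arrays, differed by 5.90, or by 3.40 with normexp, while Prrx2 differed by -4.62. Irx5 and Shox2 were above background on no Con array and were at least 2.34-fold and 1.1-fold lower (with normexp Irx5 differed by -0.20 and Shox2 was 0.33 higher). Pax1, Hand2, Irx3 and Msx2 were above background on no array of either group. Of the ParaHox, Cdx and Evx list 2 of 3 tested genes were higher, and of the cluster neighbours 17 of 45 were higher and 18 lower.

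Markers of most other cell types were higher in the muscle. All 8 tested fibre markers, all 5 endothelial, all 5 macrophage and all 5 adipocyte markers and 6 of 7 fibroblast markers were higher in Con soleus. The summed signal of 4 endothelial markers was 0.0144 to 0.0307 in WT cells and 32.0 to 39.3 in Con muscle. That of 5 fibroblast markers was 34.7 to 42.5 in WT cells and 252 to 379 in Con muscle (brightest probe Col3a1 in both, saturated on 1 Con array). Of 6 tested myoblast markers 5 were lower in Con soleus. Of the epithelial markers, Krt19 was lower (-4.86, or -3.33 with normexp) and Krt8, above background on no Con array, was at least 1.67-fold lower but 0.11 higher with normexp, while Krt18, not tested, averaged -5.63 in WT cells and -2.84 in Con muscle. The summed signal of 5 epithelial markers was 3.43 to 4.21 in WT cells (brightest probe Krt19) and 0.335 to 0.354 in Con muscle (brightest probe Krt18). The part of each cell type in the Hox signals of whole muscle was not tested.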

How the data were processed

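RNA (100 ng a sample) was labelled in a single colour and hybridised to Agilent whole mouse genome arrays, with 6 arrays each of WT and HDAC4&5 C2C12 cells, 3 of Con and 4 of db soleus. RNA came from spin columns for the cells, and from Trizol followed by spin columns for muscle. The authors deposited the intensity of each spot from Agilent Feature Extraction 9.5.1.1 as mean, background and processed intensity, with flags for spots well above background, saturated or outlying. A second deposited table, the matrix, holds each spot as the ratio between its processed intensity and a constant of the array. Of its 19 columns, 15 matched a scanner file up to such a constant, but 2 of these were db columns that matched the files of other db replicates, and its columns therefore entered the fit by group, not by replicate number. The other 4 soleus columns matched no file this closely. On the log2 scale its columns had medians of -0.101 to -0.016, and the choice of the constant is not given in the sources used here.

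Each processed intensity was divided by the 75th percentile of its array over 41174 probes and put on the log2 scale. Control and outlier spots were left out. Probes were named through RefSeq accessions (27297 probes) or by the files, and coordinates are those of the files (mm9). Comparisons used limma (version 3.58.1) under R (version 4.3.3), with data.table (version 1.17.8), on genes that all kept arrays (at least 2) of 1 or both groups showed well above background, with Benjamini-Hochberg adjustment over all genes tested. Unadjusted p-values are named as such. The normexp alternative used an offset of 50, and the other alternatives were quantile normalization, the percentile over probes detected on all arrays, the authors' matrix, other filters and probes, blocks, the methods' t-test and left-out arrays. The steps were tested on simulated data. The number of arrays limits the precision.

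Arrays with the same replicate number shared a slide. Their deviations from the group means correlated at 0.317 to 0.684 in C2C12 cells (6 pairs, 11149 genes) and 0.493 to 0.753 in soleus (3 pairs, 9267 genes), other pairs on the same slide at 0.362 to 0.702 and 0.418 to 0.81, and pairs on different slides at -0.641 to 0.0903 and -0.774 to -0.441, so the numbers pair the samples through the slide.

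Every Hox gene detected on all arrays of 1 or more groups was named, and of each other list at most 8 members, those with the largest difference past the adjusted p. Some of these genes enter the counts but are not reported here by name. Hoxb13, Hoxa13, Hoxd10, the cluster neighbours singled out and the alternative probes were chosen after their values were seen. The members and lists were chosen with earlier results of these data known.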

Additional observations from a re-analysis of the deposited data

Results flagged for a closer look

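Hoxa9 on db array 3 stood apart from the other arrays of its group, at -1.44 against -0.22 to -0.03 on the other 3 db arrays. It lay on slide 5. The Con array of that slide was at -1.33, the lowest of the 3 Con arrays, and the other db array of slide 5 was at -0.17. In all, 42 groups of arrays were examined in this way, and chance marks about 1 in 20 of them, or 2.1 here, so the single mark is below that number.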

How the results depend on the processing

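In C2C12 cells the 5 Hox genes higher became 3 in the authors' matrix, 9 with no filter and 3 with a fold of at least 1.5. The 4 lower became 2 with normexp, with the filter in both groups and with the fold, and 7 with the slide block or the replicate block. All genes higher (5162) became 2761 in the matrix and 2653 with the fold, and all genes lower (4628) became 2712 with the fold. Hoxb6, Hoxa11, Hoxc6 and Hoxc9 passed under all 17 settings and Hoxb5 under all 15 in which it was tested, Hoxa4 under 15 of 16, Hoxa5 under 14 of 17 and Hoxc13 under 12 of 16. The direction turned with normexp for Hoxa3 (0.16), Hoxa4 (0.17), Hoxb4 (0.51), Hoxc4 (0.25) and Hoxc13 (0.41), with the mean of all probes for Hoxa3 (0.30) and Hoxc10 (0.11), in the matrix for Hoxa9 (-0.15) and with quantile normalization for Hoxc10 (0.014). Without slide 1 it turned for Hoxb4 (0.23), without slide 2 for Hoxc10 (0.0063) and without slide 3 for Hoxa9 (-0.0038), Hoxb4 (0.17) and Hoxc10 (0.038).

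In soleus 0 Hox genes passed, and 1 was lower at an unadjusted p in limma and in the methods' t-test. Of all genes, 0 were higher and 1 lower. These became 1 and 2 with quantile normalization, 480 and 483 in the methods' t-test unadjusted, 388 and 432 in limma unadjusted, and 29 and 11 with the slide block. The number lower was 0 with normexp, in the matrix, with the filter in both groups and with the mean of all probes, and 2 in the adjusted t-test. Leaving out each array in turn gave 0 to 1 in either direction. The replicate block called 0 Hox genes. Uncalled soleus differences changed sign in the matrix (Hoxa4 0.35, Hoxa11 0.022, Hoxc4 0.82), with the percentile over detected probes (Hoxa10 -0.0055) and with normexp (Hoxd9 -0.064). They also did so without Con array 1 (Hoxa10), Con 2 (Hoxa5 and Hoxb7), Con 3 (Hoxa4, Hoxa9, Hoxa11 and Hoxc9) or db 1 (Hoxa4, Hoxa10, Hoxa11, Hoxc9 and Hoxc10). Over the left-out arrays Hoxa4 ranged from -0.77 to 0.094, Hoxa5 from -0.45 to 0.055, Hoxa9 from -0.024 to 0.60, Hoxa10 from -0.095 to 0.26, Hoxa11 from -0.63 to 0.32, Hoxb7 from -0.41 to 0.067, Hoxc9 from -0.86 to 0.45 and Hoxc10 from -0.053 to 0.365.

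In the comparison of Con soleus with WT cells the 10 Hox genes higher became 6 in the matrix, 24 with no filter and 3 with the filter in both groups. The 24 include genes above background on no array, such as Hoxb1 and Hoxc8, which differed by 2.22 and 2.26. The 4 lower became 2 in the matrix, with the filter in both groups and with the replicate block, which pairs nothing here since the groups shared no slide (11 higher). All genes higher (5605) became 16607 with no filter. Leaving out each Con array gave 10 to 13 Hox genes higher and 4 to 5 lower. The sign turned for Hoxa3 with normexp (0.44), the mean of all probes (0.75) and without Con 3 (-1.08 to 0.46 over the left-out arrays), for Hoxa10 in the matrix (-0.23) and without Con 2 (-0.16 to 0.19), and for Hoxa11 with the percentile over detected probes (0.18) and without Con 1 (-0.78 to 0.18). It turned for Hoxb4 with quantile normalization (-0.76) and without Con 1 (-0.11 to 1.28), for Hoxc10 with the percentile over detected probes (0.18) and for Hoxc13 with normexp (0.77). Among the lists, normexp gave fewer lower calls for retinoic acid genes (1 of 12 in C2C12 cells, 1 of 15 between soleus and C2C12) and for limb factors (2 of 15), 9 higher and 4 lower neighbours in C2C12 cells, and quantile normalization gave 1 ParaHox, Cdx and Evx gene higher in soleus.

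Counting genes well above background on at least 1 array in place of every array gave 23 Hox genes in HDAC4&5 (from 14), 24 in db (from 14), 24 in Con (from 16) and 19 in WT (from 16). Signal over background limited what could be called, more so in muscle than in C2C12 cells. Except where values above show it, the cause of these changes was not tested. The choice of the probe by mean log2 value and the unadjusted limma count were added after seeing the data.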

Other observations

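Several Hox genes had a second probe that did not stand for its gene above. The second Hoxb3 probe was well above background on 0 of 6 WT and 5 of 6 HDAC4&5 arrays, with means of -8.03 and -4.79, beside -5.22 and -4.43 for the first probe. The second Hoxa4 probe averaged -5.39 in WT and -5.85 in HDAC4&5 cells, a difference of -0.45, with 4 of 6 and 1 of 6 arrays well above background. The second Hoxa3 probe was well above background on no array. The second Hoxc10 probe averaged -2.76 in WT and -2.54 in HDAC4&5 cells, and -4.04 in Con and -3.14 in db muscle. The second Hoxd9 probe was above background on 1 of 3 Con and 3 of 4 db arrays and on no C2C12 array. Hoxa2, not tested, was above background on 4 of 6 WT arrays (-5.95 to -5.15) and 5 of 6 HDAC4&5 arrays (-4.55 to -4.32), without overlap.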
